A study of Mus musculus with 8 samples.

Results

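The genes of cholesterol synthesis and of its regulator SREBP2 were examined in brown adipose tissue (BAT) of mice whose thermogenic adipocytes lack ATGL, the adipose triglyceride lipase that opens triglyceride breakdown and is encoded by Pnpla2. The 28 genes were a list of names chosen with earlier results of these data known. The list held 21 enzyme genes from acetoacetyl-CoA thiolase to cholesterol, with the scaffold gene Erg28 counted among them. The other 7 genes control, cleave or carry what the pathway needs. All 28 matched 1 gene each among the 31053 genes of the count table, and 25 passed the filter on low counts. The study profiled bulk RNA of BAT from 4 WT and 4 ATGLKO male mice on the C57BL6/J background, to ask whether lipid-handling macrophages gather in an enlarged BAT when its adipocytes cannot break down triglyceride normally. The sample labels give an age of 10 weeks, whereas the study's legend for this experiment gives a younger age, so the age is uncertain. ATGLKO mice, written Ucp1Δ/Δ in the study, were homozygous for a floxed allele of Pnpla2 (strain B6N.129S-Pnpla2tm1Eek/J, Pnpla2 fl/fl) and bore the Cre transgene of strain B6.FVB-Tg(Ucp1-cre)1Evdr/J, which confines the deletion to cells that switch on the Ucp1 promoter, so other cells of the tissue keep the gene. Whether the WT mice were floxed littermates is not given in the sources used here. The labels name no treatment. The study's general animal methods describe a normal diet and a fast before tissues were harvested, without saying whether the fast applied to these mice.

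Cells build cholesterol from acetyl-CoA. The mevalonate arm makes farnesyl diphosphate, squalene synthase commits it to sterols, and a long tail of enzymes turns lanosterol into cholesterol. SREBP2 is the transcription factor that drives these genes. SCAP escorts it from the endoplasmic reticulum to the Golgi, where the site-1 and site-2 proteases release it, and the INSIG proteins hold SCAP back when sterols are plentiful. Brown adipocytes are better known for making and burning fatty acids than for making cholesterol. The related factor SREBP1 acts on genes of fatty acid synthesis.

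Of the 25 genes tested, 5 were lower in ATGLKO BAT at an adjusted p (pAdj, by the Benjamini-Hochberg method over the 8930 genes tested) under 0.05 in the quasi-likelihood test of edgeR. They were the squalene synthase gene Fdft1, the sterol decarboxylase gene Nsdhl, the phosphomevalonate kinase gene Pmvk, the HMG-CoA synthase gene Hmgcs1 and the SREBP brake gene Insig1. That is 20% of the genes tested, beside 7.63% of all genes tested. The other 20 did not pass, and 0 were higher, where 13.3% of all genes tested were. At an unadjusted p under 0.05, 9 were lower and 0 higher, and the share of all genes at that threshold was not computed. DESeq2 called 6 of 27 lower, beside 782 of the 12619 genes it tested. With limma-voom 6 of 25 were lower, beside 822 of 8930. Both called 0 higher, where 1278 of all genes were in DESeq2 and 1327 in limma-voom. The median log2FC of the 25 genes was -0.16, against -0.0087 over all genes tested, and 17 lay below 0. Members are not replicates of a genotype, and the list was chosen with earlier results of these data known. These counts describe the list without testing it.

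The promoters of 4 of the 5 lower genes are shown because SREBPs, with the partner NF-Y, act at sites close to the start of their target genes. Each line gives 180 bases from RefSeq on GRCm38.p6, 5′ to 3′ on the gene's strand, with capitals for the motifs searched. These are the sterol regulatory element TCACCCCAC with its looser form TCACNCCAC, the NF-Y box CCAAT, the E-box CACGTG and the GC box GGGCGG, on either strand (ATTGG and CCGCCC are the NF-Y and GC boxes read backwards). Hmgcs1 lies at chr13:119690171-119690350, Insig1 at chr5:28071183-28071362, Nsdhl at chrX:72918341-72918520 and Pmvk at chr3:89454361-89454540, all on the plus strand. The stretch of Insig1 stops 49 bases short of its RefSeq start and the others end at theirs.
Hmgcs1: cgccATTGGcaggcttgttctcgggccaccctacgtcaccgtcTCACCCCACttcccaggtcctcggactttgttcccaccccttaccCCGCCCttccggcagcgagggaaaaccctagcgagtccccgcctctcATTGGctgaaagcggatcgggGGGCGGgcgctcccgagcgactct
Insig1: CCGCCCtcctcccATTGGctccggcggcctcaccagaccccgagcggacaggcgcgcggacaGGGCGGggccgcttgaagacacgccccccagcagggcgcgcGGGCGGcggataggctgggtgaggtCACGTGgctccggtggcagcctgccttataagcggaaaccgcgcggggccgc
Nsdhl: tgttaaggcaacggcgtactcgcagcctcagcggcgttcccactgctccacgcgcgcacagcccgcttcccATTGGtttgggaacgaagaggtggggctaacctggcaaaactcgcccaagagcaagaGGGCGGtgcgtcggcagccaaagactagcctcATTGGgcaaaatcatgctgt
Pmvk: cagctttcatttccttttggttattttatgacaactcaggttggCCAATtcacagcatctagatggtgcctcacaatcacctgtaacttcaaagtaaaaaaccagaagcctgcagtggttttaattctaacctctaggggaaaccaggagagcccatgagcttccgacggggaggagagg

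Windows of 300 bases, from 250 before to 50 after the RefSeq start, were at hand for 24 of the 28 genes (not for Fdft1, Fdps, Sqle and Stard4). The sterol regulatory element TCACCCCAC stood in 1 of the 24, Hmgcs1, with its first base 137 bases before the start. It was found in 0.614% of the 27025 genes with windows. The looser TCACNCCAC, which includes the former, also occurred in Hmgcs1 alone of the 24 and in 1.44% of all genes. Other forms of the element, and sites outside the windows, were not searched, so an absent match does not show that a gene lacks one. The NF-Y box was common: 19 of 24 genes held CCAAT (79.2%), against 41.1% of all genes and 42.2% of the 7125 tested genes with windows. All 4 lower genes with windows were among the 19, as were 15 of the other 20. The GC box stood in 21 of 24 (87.5%; 71.9% of tested genes) and the E-box in 5 of 24 (20.8%; 12.4% of tested genes). The motifs can share letters at their ends and each was counted by itself, a match is only a run of letters, and a gene with several windows counted as a match if any window held the motif.

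**Figure D1:**
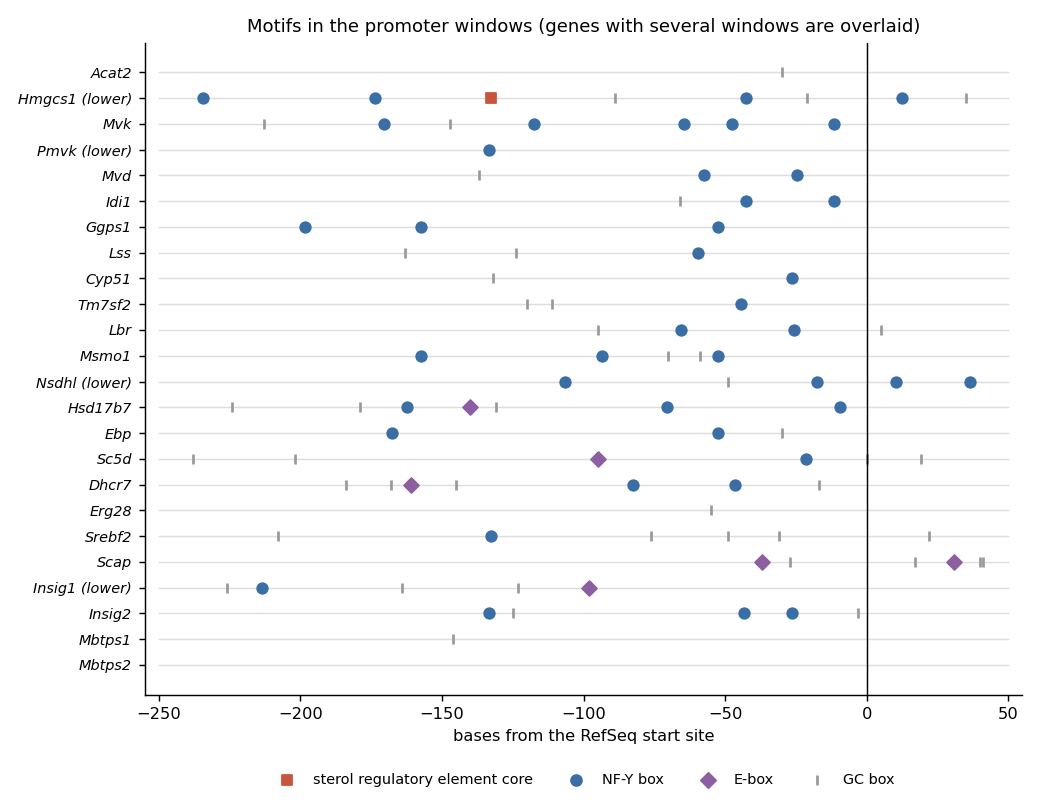
Motifs in the 24 promoter windows, 1 line per gene, by distance in bases from the RefSeq start site (0). Blue circles are NF-Y boxes, present in 19 genes. The red square is the sterol regulatory element core, seen in Hmgcs1 alone of these genes, and purple diamonds and grey ticks are E-boxes and GC boxes.

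The targeted gene was reduced as the labels state. Pnpla2 stood between 2702 and 3152 CPM (counts scaled to a common library size, here with TMM factors) in the 4 WT mice and between 403 and 531 CPM in the 4 ATGLKO mice, a log2FC of -2.62 (SE 0.17, pAdj 2.0e-07). The exons removed and the part of the transcript read by the library kit are not given in the sources used here, so whether the reads lie inside the deletion was not tested. The libraries held 2017697 to 3115956 counts in WT and 2240612 to 2941799 in ATGLKO mice (p = 0.629, two-sided exact permutation test, smallest possible 0.0286), and 3 counts corresponded to 0.933 to 1.53 CPM. Although the cell type label reads stromal vascular fraction, adipocyte genes were abundant: Ucp1 ranged from 1291 to 4110 CPM in WT and from 1421 to 2821 CPM in ATGLKO BAT.

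The tissue's composition moved with genotype. Of 11 macrophage markers tested, 11 were higher (median log2FC 3.22), and the 12 listed markers summed to 99.8 to 146 CPM in WT and 890 to 1579 CPM in ATGLKO mice, with C1qa, Ctss and C1qb the most abundant. Of 8 fibroblast markers, 7 were higher (sums 373 to 576 against 1152 to 2299 CPM). Several markers of both lists passed the filter on low counts only through the ATGLKO mice, where they are high. Their counts of calls and the median therefore lean on the filter. The macrophage marker left untested had groups that overlapped. Over all genes tested, 13.3% were higher and 7.63% lower. Of 12 adipocyte markers, 5 were lower and 1 higher (median -0.38, sums 14347 to 22976 against 10059 to 14951 CPM). In whole tissue, fewer adipocytes and less RNA per adipocyte cannot be told apart, and the part of these shifts in the sterol genes was not tested. Skeletal muscle markers varied between mice of both genotypes, from 16.7 to 1215 CPM in WT and from 48.5 to 1610 CPM in ATGLKO mice. None of the 7 tested passed in edgeR, at an unadjusted p under 0.05, in DESeq2 or in limma-voom. Lymphocyte markers summed to 3.01 to 8.96 CPM in WT and 8.36 to 17.7 CPM in ATGLKO mice, too few counts to pass the filter in edgeR, and 1 of the 8 had no count in any mouse. DESeq2, which uses another filter, gave a p for 5 of them and called 1 higher. Endothelial markers gave 0 calls of 8 (2 higher at an unadjusted p under 0.05, 0 in DESeq2, 2 in limma-voom), and 2 of 6 tested mural markers were higher (1 in DESeq2 and 1 in limma-voom).

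**Figure D2:**
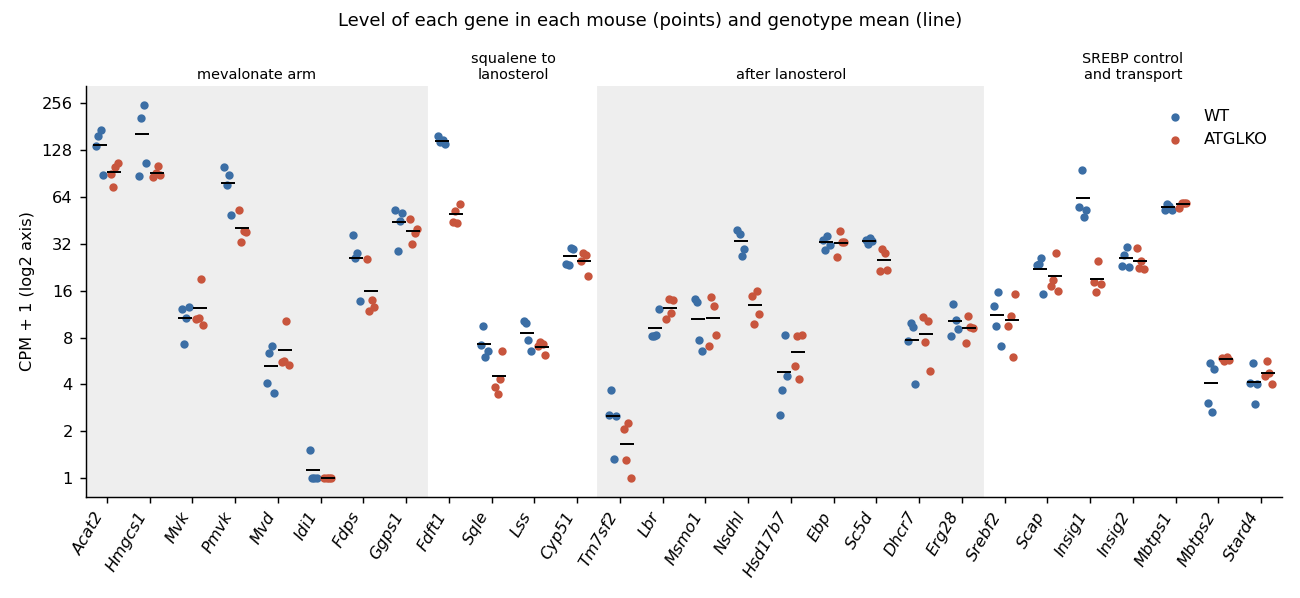
Level of each of the 28 genes in each mouse, as CPM + 1 on a log2 axis, in pathway order; blue points are WT, red points ATGLKO, and the bar is the genotype mean. Fdft1, Nsdhl, Sc5d and Insig1 show 2 separate clouds with ATGLKO lower, and Mbtps2 with ATGLKO higher. Mbtps2 has few counts and passed the filter on low counts through the ATGLKO mice.

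In the mevalonate arm, 2 of 7 tested genes were lower (28.6%, beside 7.63% of all genes tested) and the median log2FC was -0.60. Hmgcs1 condenses acetyl-CoA with acetoacetyl-CoA into HMG-CoA. It stood at 86.2, 205, 250 and 105 CPM in WT mice 1 to 4 and at 84.6, 90.9, 101 and 87.1 CPM in ATGLKO mice 1 to 4. WT mice 2 and 3 were far above the other 6 mice, and WT mouse 1 fell inside the ATGLKO range, so the groups overlapped. The highest WT value was 2.91 times the lowest, and 1.20 times among ATGLKO mice. The log2FC was -0.84 (SE 0.28, pAdj 0.042). This call did not survive leaving out WT mouse 2 (-0.72, pAdj 0.082) or WT mouse 3 (-0.55, pAdj 0.17), nor any 1 of the ATGLKO mice (pAdj 0.067 to 0.10).

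The same WT mice differed in muscle RNA. The summed muscle markers were 1215, 89.6, 16.7 and 574 CPM in WT mice 1 to 4 and 231, 1610, 48.5 and 738 CPM in ATGLKO mice 1 to 4. WT mice 2 and 3, highest for Hmgcs1, had the least muscle RNA of the WT group. ATGLKO mouse 3, whose muscle sum lay between those of WT mice 2 and 3, had 101 CPM of Hmgcs1. The ATGLKO mice did not follow this order throughout. ATGLKO mouse 2 had the highest muscle sum, 1610 CPM, and 90.9 CPM of Hmgcs1. That was above the 84.6 and 87.1 CPM of ATGLKO mice 1 and 4, whose muscle sums were lower. With the summed muscle markers as a covariate, an alternative added after the data were seen, the log2FC of Hmgcs1 was -0.54 (pAdj 0.070). WT mice 2 and 3 were also the highest WT mice for the brown adipocyte genes Ucp1 (2051, 4110, 3426 and 1291 CPM in WT mice 1 to 4) and Cidea (5791, 7455, 6824 and 3723 CPM). The adipocyte markers did not all share this order. Plin1 was also highest in WT mice 2 and 3. Pparg was lowest in them (114, 80.6, 93.5 and 108 CPM in WT mice 1 to 4), and Fabp4 was lowest in WT mouse 3. The part of muscle or adipocyte RNA in the Hmgcs1 values was not tested beyond that covariate.

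**Figure D3:**
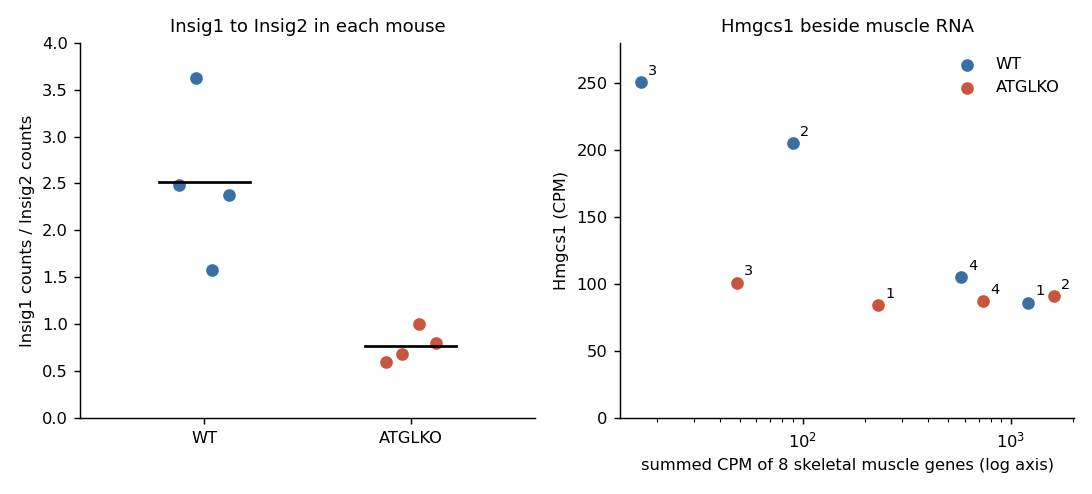
Left, Insig1 counts divided by Insig2 counts in each mouse, with the genotype mean as a bar: WT mice lie between 1.57 and 3.62 and ATGLKO mice between 0.598 and 1. Right, Hmgcs1 in CPM against the summed CPM of 8 skeletal muscle genes (log axis), with points numbered by mouse; WT mice 2 and 3 stand alone at 205 and 250 CPM.

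Pmvk, which adds the second phosphate to mevalonate, gave the steadier call of the arm. Its level was 98.4, 75.3, 87.5 and 48.1 CPM in WT mice 1 to 4 and 52.0, 32.05, 38.0 and 36.9 CPM in ATGLKO mice 1 to 4. The groups touched only through WT mouse 4, which lay below ATGLKO mouse 1. The ATGLKO mean was 51.4% of WT (77.3 ± 21.6 against 39.7 ± 8.57 CPM, SD, n = 4; log2FC -0.96, SE 0.22, pAdj 0.0058), and the call held without any 1 mouse (pAdj at most 0.033).

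Acat2, the cytosolic thiolase that makes acetoacetyl-CoA, missed the threshold narrowly. WT mice ranged from 87.1 to 172 CPM and ATGLKO mice from 73.1 to 105 CPM, with WT mouse 4 alone inside the ATGLKO range (log2FC -0.60, SE 0.21, pAdj 0.054). It passed in DESeq2 (pAdj 0.027) and without WT mouse 4 (pAdj 0.0056). Fdps, the farnesyl diphosphate synthase, gave 35.7, 25.1, 27.0 and 12.7 CPM in WT and 24.8, 10.9, 12.95 and 11.6 CPM in ATGLKO mice, a log2FC of -0.74 (SE 0.31, pAdj 0.11). Its level was high in ATGLKO mouse 1 and low in WT mouse 4, and it passed without either of them (pAdj 0.025 and 0.022).

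The rest of the arm gave no call. The log2FC was 0.23 for mevalonate kinase, Mvk (95% interval -0.40 to 0.87), and 0.36 for the mevalonate diphosphate decarboxylase, Mvd (-0.45 to 1.16). Both were highest in ATGLKO mouse 3, without which they were -0.05 and 0.06. Ggps1, which makes geranylgeranyl diphosphate for protein prenylation, gave -0.20 (-0.64 to 0.25). Idi1, the isopentenyl diphosphate isomerase, had a single count, in WT mouse 1, and was not tested. Its level was not detectable in these counts, and the reason was not tested.

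**Figure D4:**
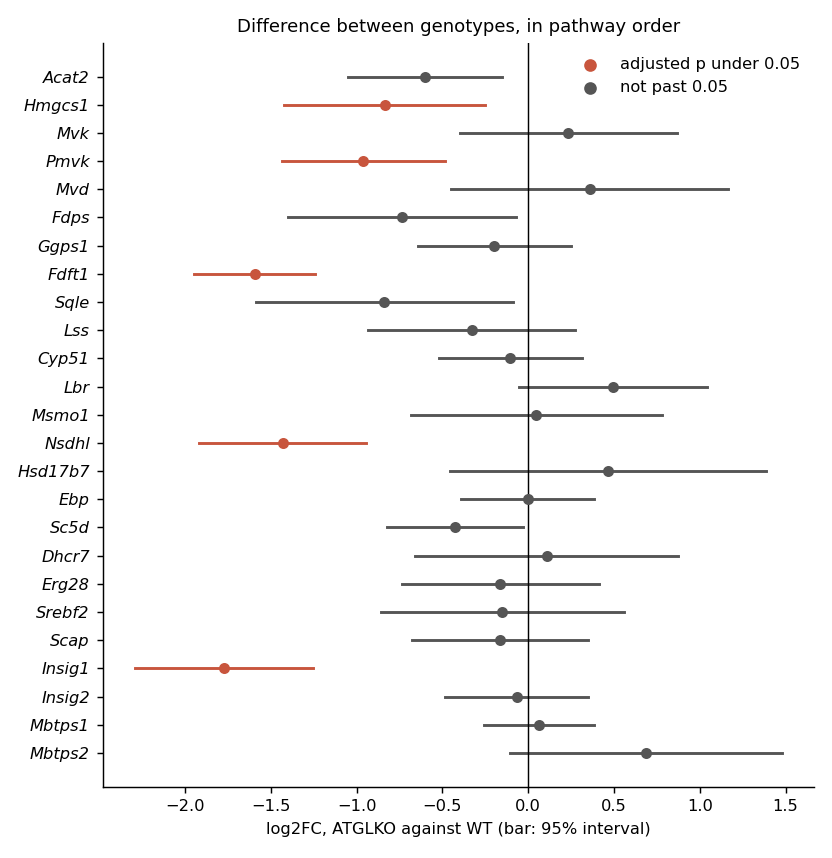
log2FC of ATGLKO against WT for the 25 genes tested, in pathway order, with bars for the 95% interval; red marks pAdj under 0.05. The values run from -1.77 for Insig1 to 0.69 for Mbtps2.

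From squalene to lanosterol, 1 of 4 genes was lower (25%, beside 7.63% of all genes tested). All 4 log2FC lay below 0 (median -0.58), although that of Cyp51 turned to 0.036 when libraries were scaled by total counts. Sqle, 1 of the 4, passed the filter on low counts through the WT mice, where it is higher. Its direction is therefore not independent of the filter, and the median includes it. Fdft1, squalene synthase, joins a pair of farnesyl diphosphates in the first step that serves sterols alone. Its gene lies at chr14:63145150-63179578 (mm10, minus strand). It stood at 157, 145, 147 and 139 CPM in WT mice 1 to 4 and at 43.5, 51.3, 42.6 and 57.1 CPM in ATGLKO mice 1 to 4. Every WT mouse lay above every ATGLKO mouse, and the spread within each genotype was small beside the gap (147 ± 7.38 against 48.6 ± 6.86 CPM, SD, n = 4). The ATGLKO mean was 33.1% of WT, with a log2FC of -1.59 (SE 0.17, pAdj 6.9e-06).

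Fdft1 shares 774 exonic bases with the cathepsin B gene Ctsb on the opposite strand, and whether counting used strand is not given in the sources used here. Ctsb itself gave a log2FC of -0.03 (SE 0.21, pAdj 0.95). Within each mouse the counts of Fdft1 divided by those of Ctsb were 0.164 to 0.299 in WT and 0.0681 to 0.111 in ATGLKO mice, without overlap. This ratio was picked after the values were seen and is given without a test. Because Ctsb differed little, it restates the Fdft1 difference. The part of the shared bases in the Fdft1 counts was not tested, as whole-gene counts cannot show it.

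The other enzymes of the stretch were not called. Squalene epoxidase, Sqle, the first oxygen-requiring step, was sparsely counted (5.01 to 8.51 CPM in WT, 2.49 to 5.58 CPM in ATGLKO mice) and gave a log2FC of -0.84 (SE 0.35, pAdj 0.11). The groups overlapped through ATGLKO mouse 4, and the log2FC of Sqle leans on the filter as given above. Lanosterol synthase, Lss, gave -0.33 (95% interval -0.93 to 0.27). Cyp51, the lanosterol demethylase, gave -0.10 (-0.52 to 0.31), from 22.4 to 29.1 CPM in WT and 18.9 to 27.1 CPM in ATGLKO mice. Cyp51 shares 166 exonic bases with Akap9 on the other strand.

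After lanosterol, 1 of 8 tested genes was lower (12.5%, beside 7.63% of all genes tested) and the median log2FC was 0.02. Nsdhl removes the C4 carboxyl group as part of C4 demethylation, and its gene is on the X chromosome (chrX:72918557-72958514, mm10, plus strand), present once in these males. It stood at 38.2, 36.3, 25.7 and 28.9 CPM in WT mice 1 to 4 and at 13.8, 8.71, 15.0 and 10.3 CPM in ATGLKO mice 1 to 4. The lowest WT mouse was well above the highest ATGLKO mouse. The mean fell to 37.1% of WT (32.3 ± 5.95 against 11.96 ± 2.95 CPM, SD, n = 4; log2FC -1.43, SE 0.23, pAdj 0.00034).

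The genes that work beside Nsdhl gave no call. The log2FC was 0.05 for the methyl oxidase Msmo1 (95% interval -0.68 to 0.78), 0.47 for the ketoreductase Hsd17b7 (-0.45 to 1.39) and -0.16 for the scaffold gene Erg28 (-0.74 to 0.41). Hsd17b7 varied 4.80-fold among WT mice. These intervals are wide, and differences from Nsdhl were not tested.

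Sc5d, the sterol C5 desaturase, separated the groups without passing the test. WT mice held 33.1, 30.9, 34.1 and 32.4 CPM and ATGLKO mice 20.5, 28.6, 27.2 and 20.6 CPM. All ATGLKO mice lay below all WT mice, with a smaller gap than for Fdft1 (log2FC -0.43, SE 0.19, pAdj 0.12). Groups without overlap and ATGLKO lower occurred in 4 of the 25 genes (Fdft1, Nsdhl, Sc5d and Insig1), beside 9.37% of all genes tested.

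Ebp, the sterol isomerase, gave a log2FC of -0.0029 with an interval of -0.39 to 0.39. Dhcr7, which makes cholesterol from its 7-dehydro form, gave 0.11 (-0.66 to 0.88). The interval of Lbr, an inner nuclear membrane protein with sterol reductase activity, also spanned 0 (0.50, -0.05 to 1.04). Tm7sf2, the other C14 reductase, had 20 counts over all mice and was not tested.

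Among the SREBP genes, 1 of 6 tested was lower (16.7%, beside 7.63% of all genes tested). Insig1, the retention protein whose own transcription SREBPs drive, lies at chr5:28071363-28078662 (mm10, plus strand). It stood at 54.6, 94.1, 46.8 and 51.7 CPM in WT mice 1 to 4 and at 17.3, 14.6, 23.8 and 16.7 CPM in ATGLKO mice 1 to 4. No value was shared between the groups, and WT mouse 2 was the highest of all. The ATGLKO mean was 29.4% of WT (61.8 ± 21.8 against 18.1 ± 3.97 CPM, SD, n = 4), with the lowest log2FC of the list, -1.77 (SE 0.24, pAdj 9.4e-05).

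Insig2, its paralog, which is not known as an SREBP target, held 21.8 to 29.7 CPM in WT and 21.03 to 29.0 CPM in ATGLKO mice. The log2FC was -0.07 (95% interval -0.49 to 0.35, pAdj 0.85). The ratio of Insig1 to Insig2 counts, chosen after their values were seen and given without a test, was 2.49, 3.62, 1.57 and 2.37 in WT mice 1 to 4 and 0.598, 0.681, 1 and 0.796 in ATGLKO mice 1 to 4. Each WT mouse had more counts of Insig1 than of Insig2, and no ATGLKO mouse did. Because Insig2 differed little, the ratio restates the Insig1 difference.

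The transcript of SREBP2 itself gave no call. Srebf2 ranged from 6.08 to 14.7 CPM in WT and from 5.01 to 14.2 CPM in ATGLKO mice (log2FC -0.15, 95% interval -0.86 to 0.56, pAdj 0.80). Scap, the escort, gave -0.16 (-0.68 to 0.35). SREBP2 activity depends on cleavage of the protein, which RNA counts do not measure.

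The protease genes were not called. Mbtps1, site-1 protease, had the tightest estimate of the list, 51.5 to 56.9 CPM in WT and 53.1 to 57.9 CPM in ATGLKO mice (log2FC 0.06, 95% interval -0.26 to 0.38). Mbtps2, site-2 protease, gave 2.04, 4.48, 1.67 and 4.05 CPM in WT and 4.95, 4.67, 5.01 and 4.72 CPM in ATGLKO mice, the 1 gene of the 25 whose groups did not overlap with ATGLKO higher (14.4% of all genes tested). The gene did not pass the test (log2FC 0.69, SE 0.37, pAdj 0.22), at 4 to 15 counts per library. It passed the filter on low counts through the ATGLKO mice, where it is higher, so the separation is not independent of the filter. Stard4, a carrier of cholesterol between membranes, had 69 counts in all and was not tested. Its level was 2.004 to 4.48 CPM in WT and 3.005 to 4.67 CPM in ATGLKO mice.

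Neighbouring lists put these values in context. Over all genes tested, 7.63% were lower and 13.3% higher. In fatty acid synthesis, which has SREBP1 among its regulators, 9 of 15 tested genes were lower (60%, median log2FC -1.15). In this list 0 were higher (0 also at an unadjusted p under 0.05, in DESeq2 and in limma-voom). The fatty acid synthase gene Fasn gave -2.29 (pAdj 4.2e-06), the citrate carrier gene Slc25a1 -1.62 (pAdj 9.5e-06), the elongase gene Elovl6 -1.23 (pAdj 4.7e-05) and the ATP citrate lyase gene Acly, which supplies cytosolic acetyl-CoA to both pathways, -1.89 (pAdj 5.3e-05). The transcript of SREBP1, Srebf1, was not called (-0.51, pAdj 0.41), nor was the desaturase gene Scd1 (-0.34, pAdj 0.20).

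Branches that draw isoprenoids off the pathway gave 2 lower genes of 13 (15.4%, beside 7.63% of all genes tested, median -0.16). Both encode prenyltransferase subunits, Rabggtb (log2FC -0.59, pAdj 0.021) and Fnta (-0.59, pAdj 0.026). None was higher in edgeR, where 13.3% of all genes tested were (1 at an unadjusted p under 0.05, 0 in DESeq2, 1 in limma-voom).

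Sterol-regulated degradation acts on enzymes of the pathway through the INSIG proteins. The list drawn up for it also holds genes, such as Pgrmc1, that are not established parts of that machinery. The list gave 4 lower and 1 higher of 13 (median -0.21). These are 30.8% lower and 7.69% higher, beside 7.63% lower and 13.3% higher over all genes tested. Among the lower genes were the sterol-binding protein Pgrmc1 (-1.11, pAdj 0.0049), Aup1 (-0.62, pAdj 0.039) and Ufd1 (-0.46, pAdj 0.041). The ubiquitin ligase Rnf145 was higher (0.73, pAdj 0.025), a call that DESeq2 did not make.

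Sterol transport and storage genes moved in both directions, with 2 of 11 lower and 3 higher (median -0.29). These are 18.2% lower and 27.3% higher, beside 7.63% lower and 13.3% higher over all genes tested. Higher were Soat1, which esterifies cholesterol for storage (log2FC 3.69, pAdj 2.6e-05), Nceh1, a cholesteryl ester hydrolase (3.60, pAdj 0.00013), and the lysosomal acid lipase Lipa (0.99, pAdj 0.0083). Soat1 had 14 counts over the 4 WT mice and 224 over the 4 ATGLKO mice, and Nceh1 17 and 257. Both passed the filter on low counts through the ATGLKO mice, where they are high, so their fitted log2FC rest on very few WT counts and are imprecise. Their levels were 1.02 to 2.03 and 0 to 4.59 CPM in WT mice and 8.78 to 32.05 and 13.4 to 39.2 CPM in ATGLKO mice. All 3 are well known in macrophages, whose markers rose in the same mice as given above, and the part of those cells was not tested.

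Lower were Gramd1a (-1.43, pAdj 0.0033) and Gramd1b (-0.86, pAdj 0.017), which encode Aster proteins that carry cholesterol from the plasma membrane to the endoplasmic reticulum. Gramd1a ranged from 8.16 to 23.3 CPM in WT and from 5.15 to 7.43 CPM in ATGLKO mice. The remaining gene of that family, Gramd1c, was named after its values were seen. It had 37 counts and was not tested, with 2.53 to 5.61 CPM in WT mice and at most 0.418 CPM in ATGLKO mice.

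**Figure D5:**
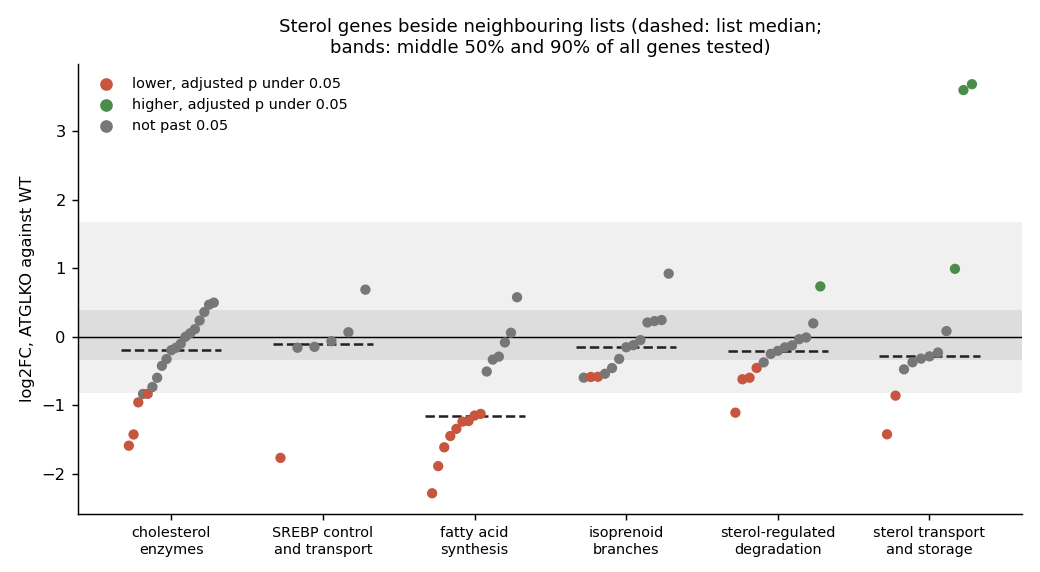
log2FC of each tested gene in the cholesterol enzymes, the SREBP control and transport genes and 4 neighbouring lists. Red and green mark pAdj under 0.05, dashes the list medians (-1.15 for fatty acid synthesis), and the grey bands the middle 50% and 90% of all genes tested; Soat1 and Nceh1 stand at the top right, at 3.69 and 3.60.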

How the data were processed

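Total RNA (50 ng) of BAT was made into NEGEDIA Digital mRNA-seq libraries and sequenced single-end. Whole-number counts per gene, deposited by the authors, were used unnormalized; the authors' normalized values were not used. The study's methods name bbduk, STAR and HTSeq on mm10, whereas the submitters' processing notes name Trimmomatic, HISAT2, DESeq2 and GRCm38; which made the file, the annotation release and the strand setting are not given in the sources used here. Symbols and positions came from GENCODE M21 (30934 of 31053 genes).

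Genotypes followed the labels, with 4 mice each; p-values reflect the spread between these mice. Counts of any pair of mice of a genotype differed beyond sampling noise (chi-square per degree of freedom 4.69 to 23.2), so all 8 were kept. edgeR 4.0.16 (R 4.3.3) was run with filterByExpr, TMM and genotype as the sole term. Its quasi-likelihood p-values were adjusted by Benjamini-Hochberg over 8930 genes, with a threshold of 0.05. CPM are scaled by TMM, intervals are 95% and 3 counts set the floor. Fits, promoters and plots used limma 3.58.1, DESeq2 1.42.0 and Python 3.11.15. Alternatives were DESeq2, its size factors, total counts, other filters (1 count in any mouse, 10 in every mouse), a replicate block, limma-voom, removal of mitochondrial genes and leaving out each mouse; a muscle covariate was added later.

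The 28 genes and all lists were chosen with earlier results of these data known. Named genes were the 28, Pnpla2, up to 4 genes per direction and pathway list by smallest adjusted p, and up to 3 markers per list by mean CPM. Ctsb, Akap9, Gramd1c, Srebf1, Scd1, Plin1 and Pparg were named with their values already seen. For 1 gene that met this rule, values are not reported here.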

Additional observations from a re-analysis of the deposited data

Results flagged for a closer look

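Of 52 groups of 4 mice examined on log2(CPM + 1), 4 had 1 mouse far from the rest, where chance gives about 2.6 (1 in 20). The measure is the gap to the nearest mouse divided by the range of the group, read against Dixon's 95% critical value. ATGLKO mouse 3 stood above the other ATGLKO mice for Mvk (18.0 CPM against 8.58 to 9.65, gap 0.846 of the range) and for Mvd (9.19 against 4.29 to 4.67 CPM, gap 0.896). Without that mouse the log2FC was -0.05 for Mvk and 0.06 for Mvd. WT mouse 4 stood above the other WT mice for Lbr (11.1 against 7.14 to 7.35 CPM, gap 0.937). ATGLKO mouse 1 stood below the others for Mbtps1 (53.1 against 57.3 to 57.9 CPM, gap 0.863). None of these 4 genes was called between genotypes, and no reason for the values was tested.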

How the results depend on the processing

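Pmvk, Fdft1, Nsdhl, Insig1 and Pnpla2 kept their direction and their call in all 8 fits that left out 1 mouse and in the 9 other alternatives. Of the 28 genes, 4 to 7 were lower and 0 higher across all of these. Hmgcs1 lost its call in 6 of 8 fits without 1 mouse, with total counts (pAdj 0.090), with at least 10 counts in every mouse (0.060), in limma-voom (0.092) and with the muscle covariate. The cause was not tested.

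Over all genes, 681 were lower and 1191 higher. Scaling by total counts gave 404 lower and 1478 higher and moved the median log2FC of all genes to 0.13, from -0.0087. Requiring at least 10 counts in every mouse, which tests fewer genes, gave 449 and 746 and left Sqle, Mvd, Dhcr7, Hsd17b7 and Mbtps2 untested. Leaving out 1 mouse gave 400 (without ATGLKO mouse 2) to 851 lower genes.

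Only uncalled genes changed sign. With total counts the log2FC was 0.036 for Cyp51, 0.14 for Ebp and 0.067 for Insig2. With at least 10 counts it was 0.067 for Ebp and 0.00062 for Insig2, and with the muscle covariate -0.012 for Msmo1 and 0.010 for Insig2. Leaving out 1 mouse gave -0.095 to 0.095 for Ebp, -0.18 to 0.23 for Msmo1, -0.39 to 0.089 for Srebf2, -0.17 to 0.025 for Insig2, -0.13 to 0.31 for Dhcr7 and -0.047 to 0.34 for Mvk.

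The labels number the mice 1 to 4 in both genotypes, but nothing says that a number marks a shared litter or day, and same-numbered mice deviated together only in part (correlations -0.196 to 0.304, mean 0.0653). With the replicate block 581 genes were lower and 1138 higher, the log2FC of Hmgcs1 was -0.71 (pAdj 0.045), Fdps gained a call (pAdj 0.041) and no other tested gene of the list changed its call.

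At 2017697 to 3115956 counts a library, standard errors of the 25 genes ran from 0.15 to 0.43, and differences of sparsely counted genes such as Mvd, Sqle or Hsd17b7 were not detectable unless large.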

Other observations

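Fdft1 and Cyp51 act within a few steps of each other on the same pathway, and their counts can be set against each other within a mouse. The ratio, picked after the values were seen and given without a test, was 6.82, 6.46, 5.07 and 4.81 in WT mice 1 to 4 and 1.84, 1.90, 1.62 and 3.02 in ATGLKO mice 1 to 4. No ATGLKO mouse reached the lowest WT mouse. Because Cyp51 differed little (log2FC -0.10), the ratio restates the Fdft1 difference.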
